A study of Mus musculus with 26 samples.

Results

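The 8 genes described here belong to the TGF-beta pathway and were taken by name from the deposited gene tables: Tgfb1, Nrros, Tgfbr1, Tgfbr2, Smad3, Smad7, Skil and Tgfbi. All 8 were listed in all 3 tables, among 50104 genes that the tables share and 17792 genes that were tested in a fit of all 26 samples. RNA sequencing was done on cells sorted by FACS from naive female mice, either WT C57BL/6J or ACKR2-/-, a whole-body deletion of the atypical chemokine receptor that takes up inflammatory CC chemokines. The cells were bone marrow monocytes (Ly6C+, CD11b+, F4/80-), small peritoneal macrophages (SPMs, F4/80 mid, MHCII+) and lung interstitial macrophages that were MHCII negative, with 4 samples of each genotype (5 for the lung). WT mice were purchased and ACKR2-/- mice came from a homozygous colony bred in-house, so that genotype and colony cannot be told apart. Each monocyte and SPM sample pooled the cells of several mice, and no source used here gives the number of mice behind a lung sample.

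TGF-beta is secreted in a latent form and has to be released before it can act. The active ligand brings together a type II and a type I receptor kinase, which phosphorylate Smad2 and Smad3, and these enter the nucleus with Smad4 to regulate target genes. In monocytes and macrophages the pathway is known for its part in differentiation and in tissue residence. Of the 8 genes, Tgfb1 encodes the main ligand of blood cells and Nrros encodes a protein that holds latent TGF-beta1 at the surface of myeloid cells. Tgfbr1 and Tgfbr2 encode the type I and type II receptors and Smad3 the signal transducer. Smad7 and Skil encode inhibitors whose transcription the pathway itself induces, and Tgfbi encodes an extracellular matrix protein named for its induction by TGF-beta.

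Values per sample are given as CPM, counts divided by the scaled library size of the sample within its cell type, and RPKM is used where genes of different lengths are set side by side. Total counts on genes were 15450670 to 19218213 per sample in monocytes, 12781144 to 35400034 in SPMs and 19950019 to 29770252 in lung macrophages. A count of 0 allows up to 3 reads, which is 0.0773 to 0.264 CPM across the samples and covers counting error only. The targeted gene, Ackr2, had 2 reads in all WT monocyte samples together and 29 in all WT SPM samples, against 0 in the ACKR2-/- samples of both. In the lung it lay at 7.75 to 22.1 CPM in 4 WT libraries and at 0.282 to 1.64 CPM in the 5 ACKR2-/- libraries, and the library labelled WT replicate 5 held 0 reads of it. WT lung replicate 3 also stood apart, with a summed level of the SPM or monocyte-derived macrophage marker list of 23387 CPM, where the ACKR2-/- lung libraries reached at most 3132 CPM. The MHCII gene H2-Ab1 of this list alone reached 21242 CPM in WT lung libraries. Some lung results are therefore also given without WT replicate 3, without WT replicate 5 or without both.

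The windows upstream of 3 members are shown because they belong to the ligand, to the protein that stores it and to a receptor whose level differed between SPMs and monocytes. Each is the 250 bases before the RefSeq transcription start, read 5′ to 3′ on the strand of the gene, in build GRCm38.p6. Capitals mark CAGAC or its reverse complement GTCTG, the core of the element that Smad3 binds.

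Tgfb1, chr7:25686752-25687001, plus strand: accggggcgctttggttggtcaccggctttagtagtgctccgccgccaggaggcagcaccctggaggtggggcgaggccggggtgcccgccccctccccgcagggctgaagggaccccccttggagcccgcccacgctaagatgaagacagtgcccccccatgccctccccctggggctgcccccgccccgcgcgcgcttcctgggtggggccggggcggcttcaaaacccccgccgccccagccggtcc
Nrros, chr16:32165595-32165844, minus strand: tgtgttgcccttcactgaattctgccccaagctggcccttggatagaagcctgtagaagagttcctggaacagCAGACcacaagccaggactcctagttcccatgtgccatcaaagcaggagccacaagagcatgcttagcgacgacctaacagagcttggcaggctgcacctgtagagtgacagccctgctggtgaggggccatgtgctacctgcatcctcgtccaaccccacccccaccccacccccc
Tgfbr2, chr9:116175364-116175613, minus strand: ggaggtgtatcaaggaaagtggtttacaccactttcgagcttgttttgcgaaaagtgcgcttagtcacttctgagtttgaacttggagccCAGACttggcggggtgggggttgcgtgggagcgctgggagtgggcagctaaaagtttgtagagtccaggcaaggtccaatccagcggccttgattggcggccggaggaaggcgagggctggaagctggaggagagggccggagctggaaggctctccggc

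By the deposited annotation, Tgfb1 (ENSMUSG00000002603) lies at chr7:25687002-25705077, Nrros at chr16:32142785-32165594 and Tgfbr2 at chr9:116084293-116175360, and each window borders or lies next to the 5′ end of its gene. Tgfbr1 lies at chr4:47353222-47414931, Smad3 at chr9:63646767-63757994, Skil at chr3:31095058-31122577 and Tgfbi at chr13:56609523-56639562, and all members are protein coding. The Tgfb1 window held 0 copies of the motif, and the Nrros and Tgfbr2 windows held 1 each. Windows were found for 6 of the 8 members, all but Smad7 and Skil, and numbered 7 because Tgfbr1 has a second window. Of these 6 members, 4 had at least 1 copy in a window. The Tgfbr1 window at the gene start held 0 copies, and the one inside the gene, at chr4:47385966-47386215, held 1. Of 32851 windows of this length in the reference table, 42.2% held the motif on either strand. That is a share of windows, so it does not compare directly with a count of members. The longer palindrome GTCTAGAC was in 0 of the windows of the 6 members and in 0.167% of all windows. A match is a description of letters only, and binding was not measured.

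The first question was whether expression of the pathway differs between WT and ACKR2-/- monocytes. Tgfb1 was the member with the largest difference and was lower in every ACKR2-/- library. It was measured at 41.5, 51.1, 50.8 and 40.1 CPM in the WT samples and at 24.3, 18.4, 35.3 and 26.6 CPM in the ACKR2-/- samples. The highest ACKR2-/- sample, replicate 3, lay below the lowest WT sample, so the genotypes did not overlap. Genes whose ACKR2-/- samples all lay lower made up 5.25% of the 13246 genes tested in monocytes, and genes whose ACKR2-/- samples all lay higher 4.94%. The log2 fold change of Tgfb1 was -0.81 ± 0.18 (SE, 95% CI -1.21 to -0.41), with an adjusted p of 0.0562 in edgeR's quasi-likelihood test (Benjamini-Hochberg), outside the threshold of 0.05. This call depended on the test. DESeq2 gave a log2 fold change of -0.81 with an adjusted p of 0.00504, edgeR without a filter on low counts gave 0.00965, and leaving out ACKR2-/- replicate 3 gave -0.98 with an adjusted p of 0.0116. Leaving out any other sample gave an adjusted p of 0.073 to 0.183, with the log2 fold change between -0.86 and -0.66.

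The other 7 members overlapped between the genotypes in monocytes. Nrros, the abundant latency protein, was at 375, 318, 335 and 325 CPM in WT samples and at 368, 259, 451 and 397 CPM in ACKR2-/- samples, with the lowest and the highest value both in ACKR2-/- samples. Its log2 fold change was 0.13 ± 0.16 (95% CI -0.23 to 0.48). Tgfbr1 was at 12.6, 12.2, 14.0 and 13.9 CPM in WT samples and at 20.4, 17.0, 12.4 and 15.4 CPM in ACKR2-/- samples. All ACKR2-/- samples but replicate 3 lay above the WT samples, and the log2 fold change of 0.31 ± 0.16 had an adjusted p of 0.358 in edgeR. Tgfbr2 varied more, from 7.90 to 16.8 CPM in WT samples and from 5.43 to 19.7 CPM in ACKR2-/- samples (log2 fold change 0.12, 95% CI -0.63 to 0.87).

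The downstream members were low apart from Tgfbi. Smad3 was at 5.82 ± 0.364 CPM in WT and 5.27 ± 0.297 CPM in ACKR2-/- monocytes (mean ± SD, n = 4 each), Skil at 5.08 ± 0.949 and 5.78 ± 0.687 CPM, and Smad7 at 1.27 ± 0.337 and 1.14 ± 0.274 CPM. Their log2 fold changes were -0.14, 0.19 and -0.17, all with intervals across 0. Tgfbi, the target gene, was at 469, 325, 439 and 375 CPM in WT samples and at 211, 248, 485 and 408 CPM in ACKR2-/- samples. ACKR2-/- replicates 1 and 2 lay below all WT samples and replicate 3 above them (log2 fold change -0.25, 95% CI -0.78 to 0.28). Calls required an adjusted p below 0.05 together with a log2 change of more than 0.5 in size. By this rule 0 of 8 members were called in monocytes with edgeR, against 1.27% of all genes. An unadjusted p under 0.05 in edgeR was found for 1 member and for 2251 of the 13246 genes tested. DESeq2 called 1 member, Tgfb1, and the share of all genes that it called was not recorded.

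**Figure D1:**
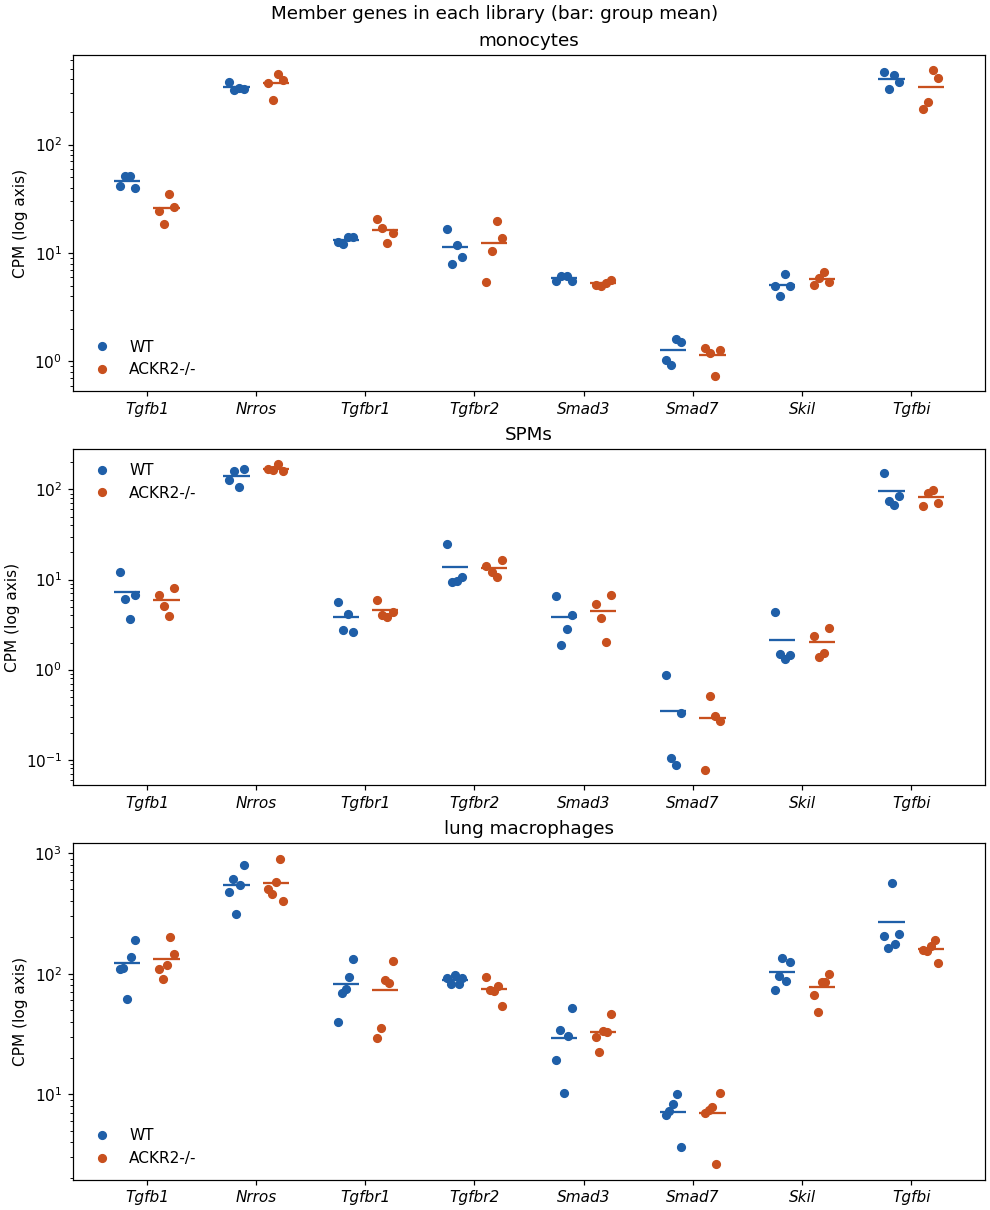
CPM of the 8 genes (log axis) in each library, by cell type, with WT in blue and ACKR2-/- in orange and bars at the group means. In monocytes the Tgfb1 points of the genotypes are apart (40.1 CPM or more in WT, 35.3 CPM or less in ACKR2-/-), and every other gene overlaps in every cell type.

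Markers of other cells moved with the genotype in the monocyte libraries. All 7 tested T cell markers were called higher in ACKR2-/- samples, with a summed level of 63.0 to 108 CPM against 3.12 to 4.36 CPM in WT samples. The 1 tested NK cell marker was called higher too (summed list 2.22 to 4.36 CPM against 0.0651 to 0.334 CPM, with Ncr1 at 0 in all samples). Of 2 tested genes of the large peritoneal macrophage list, 1 was called lower. In that list Alox15 was at 1.93 to 3.39 CPM in WT and 0.114 to 0.956 CPM in ACKR2-/- samples, and Icam2 overlapped. Gata6 and Timd4 reached at most 0.0651 and 0.269 CPM. The paper reports that transcription of both ALOX15 and TGFB1 was reduced in ACKR2-/- monocytes. The summed platelet markers were 1.58 to 16.0 CPM in ACKR2-/- and 6.60 to 64.5 CPM in WT samples, and the summed neutrophil markers 12652 to 42181 CPM against 27244 to 66307 CPM, with 0 called in either list. The monocyte markers summed to 4531 to 8674 CPM in ACKR2-/- and 7540 to 8259 CPM in WT samples, and 0 of 5 were called. The part of these cells in the Tgfb1 difference was not tested. In bulk samples fewer cells that express a gene and less RNA per cell cannot be told apart.

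In SPMs the members were close between the genotypes. Tgfb1 was low, at 12.3, 6.09, 3.61 and 6.80 CPM in WT samples and at 6.74, 5.02, 3.89 and 8.08 CPM in ACKR2-/- samples. WT replicate 1 was the highest and the other samples overlapped, with a log2 fold change of -0.28 ± 0.37 (95% CI -1.10 to 0.53). Without WT replicate 1 the log2 fold change was 0.09, in the other direction. Nrros was at 127, 159, 107 and 168 CPM in WT samples and at 167, 166, 189 and 158 CPM in ACKR2-/- samples, of which only replicate 3 lay above all WT samples (log2 fold change 0.28, 95% CI -0.15 to 0.71).

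Tgfbr2 was the receptor with more reads in SPMs, at 24.8, 9.50, 9.59 and 10.7 CPM in WT and 14.0, 12.1, 10.6 and 16.6 CPM in ACKR2-/- samples. WT replicate 1 lay above all other samples, and the log2 fold change of -0.04 became 0.42 without it. Tgfbr1 (log2 fold change 0.26), Smad3 (0.21), Skil (-0.08) and Tgfbi (-0.22) had intervals across 0. Smad7 had 68 reads over the 8 SPM samples and did not pass the filter on low counts. Of the 7 members tested in SPMs, 0 were called by edgeR, 0 had an unadjusted p under 0.05 and 0 were called by DESeq2, and 0.0462% of the 12997 genes tested were called. In 0 of the 7 did the genotypes separate, where 1.6% of all genes lay lower and 1.8% lay higher in every ACKR2-/- sample.

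In lung macrophages the genotypes of every member overlapped. Tgfb1 was at 110, 112, 61.6, 137 and 189 CPM in WT samples and at 110, 90.7, 117, 203 and 145 CPM in ACKR2-/- samples. The lowest value was in WT replicate 3 (log2 fold change 0.13, 95% CI -0.52 to 0.77), and without that library the log2 fold change was -0.01, in the other direction. Tgfbi had the largest difference of the members, at 207, 163, 570, 177 and 214 CPM in WT and 158, 153, 170, 189 and 123 CPM in ACKR2-/- samples. The difference of -0.75 ± 0.33 (95% CI -1.47 to -0.02, adjusted p of 1.00 in edgeR) depended on WT replicate 3, and without that library it was -0.24. Without both WT replicates 3 and 5 it was -0.16.

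Skil, the inhibitor, was at 73.2, 95.2, 134, 87.0 and 125 CPM in WT and at 67.1, 48.4, 85.0, 84.7 and 99.8 CPM in ACKR2-/- samples. The genotypes overlapped, with the lowest 2 values in ACKR2-/- samples and the highest 2 in WT samples, and a log2 fold change of -0.42 ± 0.23 (95% CI -0.92 to 0.08), which was -0.10 without WT replicates 3 and 5. Tgfbr2 was at 91.6, 81.8, 98.1, 81.5 and 92.0 CPM in WT samples and at 94.6, 73.8, 71.6, 79.8 and 53.6 CPM in ACKR2-/- samples (log2 fold change -0.25, 95% CI -0.61 to 0.10). Its gene lies 5.72 Mb from Ackr2 on the same chromosome, 9, and Smad3 58.1 Mb away. Nrros, Tgfbr1, Smad3 and Smad7 had log2 fold changes of 0.05, -0.17, 0.18 and -0.04, and of 0.12, 0.16, 0.29 and -0.15 without WT replicates 3 and 5. The direction of all 4 depended on single libraries. Without WT replicate 3, Nrros was -0.07, Smad3 -0.02 and Smad7 0.05, and without WT replicate 5, Tgfbr1 was 0.10. Without ACKR2-/- replicate 4, Nrros was -0.17 and Smad7 0.18, without ACKR2-/- replicates 1 or 2 in turn Tgfbr1 was 0.03 and 0.004, and without WT replicate 4 Smad7 was 0.11. In the lung edgeR called 0 of 8 members, as it did 0% of the 16824 genes tested, and DESeq2 called 0 members. An unadjusted p under 0.05 in edgeR was found for 1 member, Tgfbi, and for 499 of all genes tested. The genotypes of 0 members separated, where 0.226% of all genes lay lower and 0.22% lay higher in every ACKR2-/- sample.

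**Figure D2:**
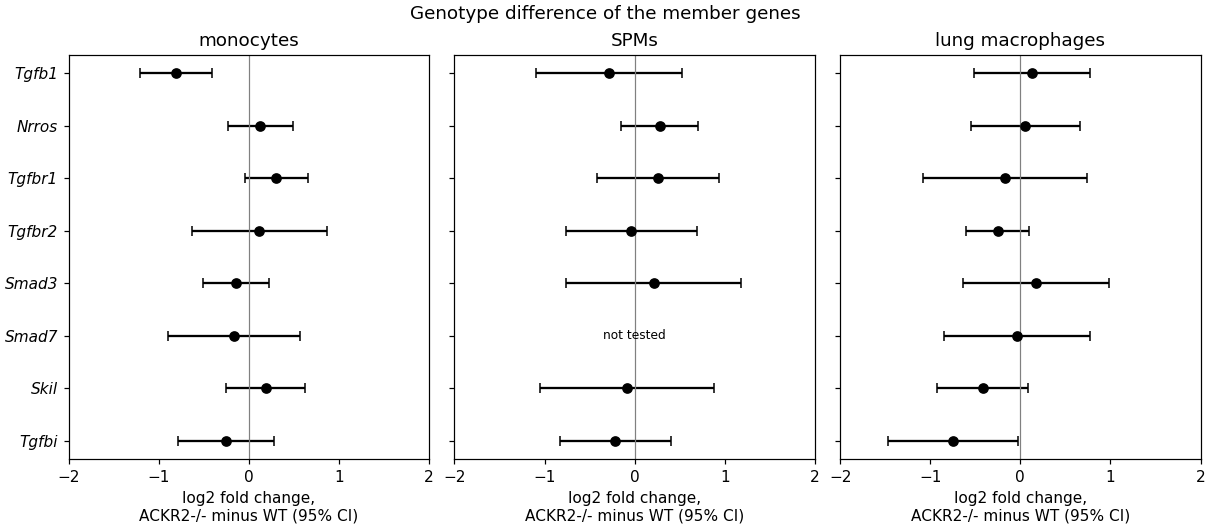
Log2 fold change of ACKR2-/- minus WT for the 8 genes in each cell type, with 95% confidence intervals from edgeR. The interval of Tgfb1 in monocytes (-1.21 to -0.41) and that of Tgfbi in lung macrophages (-1.47 to -0.02) lie below 0, and Smad7 was not tested in SPMs.

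The genotype effects were then compared between cell types in the fit of all 26 samples. The effect on Tgfb1 in lung macrophages minus that in monocytes was 0.97 ± 0.43 on the log2 scale (95% CI 0.08 to 1.86, adjusted p of 0.778 in edgeR), and in SPMs minus monocytes 0.63 ± 0.46 (adjusted p of 0.784). It is thus not shown that the effect on Tgfb1 differs between cell types. For the difference between SPMs and monocytes 0 of 8 members were called and 0 had an unadjusted p under 0.05, beside 0.253% of all genes called. For lung macrophages against monocytes 0 members were called, beside 0.152% of all genes. An unadjusted p under 0.05 was found there for 1 member, Tgfb1, and for 1080 of 17792 genes. For lung macrophages against SPMs 0 members were called and 0 had such a p, beside 0.0393% of all genes called.

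A wider list of 70 pathway genes, which holds the 8 members, was examined for the same comparisons. Of 45 tested in monocytes, 1 was called higher and 0 lower in ACKR2-/- samples, beside 1.27% of all genes called in either direction. The median log2 fold change was -0.05, beside 0.00 over all genes. The called gene was Id3, an inhibitor of DNA binding that BMP and TGF-beta signals induce, at 1.37, 0.808, 2.0 and 0.839 CPM in WT and 4.46, 3.59, 3.89 and 3.93 CPM in ACKR2-/- monocytes. All ACKR2-/- samples lay higher, as they did for 4.94% of all genes tested. The log2 fold change of Id3 was 1.65 ± 0.31 (adjusted p of 0.0283 in edgeR). The call was lost without WT replicate 1, 2 or 4 or ACKR2-/- replicate 4 (adjusted p 0.0729 to 0.0965). It moved with the T cell markers given above, whose part in it was not tested. Id2, a related inhibitor, had a log2 fold change of -0.33 with an adjusted p of 0.291.

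In SPMs 1 of 50 tested genes of the list was called higher and 0 lower, beside 0.0462% of all genes called in either direction. The median was -0.12, beside -0.05 over all genes. The called gene was Gdf3, a ligand of the TGF-beta superfamily, at 0.719, 1.39, 2.11 and 1.18 CPM in WT and 11.2, 6.01, 6.39 and 12.7 CPM in ACKR2-/- samples. All ACKR2-/- samples lay above all WT samples, as they did for 1.8% of all genes tested in SPMs. The log2 fold change of Gdf3 was 2.78 ± 0.39 (adjusted p of 0.0433 in edgeR). The call was lost in 7 of the 8 fits that left out a sample, all but that without WT replicate 1, with log2 fold changes of 2.57 to 3.04. It was also lost with RLE factors, a filter at 1 CPM, a robust fit and a replicate block (adjusted p 0.0516 to 0.0921), and held with DESeq2. The effect on Gdf3 was larger in SPMs than in monocytes by 2.84 ± 0.59 (adjusted p of 0.0319 in edgeR), and Gdf3 was at 10.1 ± 1.76 CPM in WT and 10.1 ± 2.12 CPM in ACKR2-/- monocytes (SD, n = 4). This call was lost in 11 of 20 alternatives, with differences of 2.60 to 3.11 and adjusted p of up to 0.0910 over all 20. The 11 each left out a single library, namely WT monocyte replicate 1, 2 or 4, ACKR2-/- monocyte replicate 1, 3 or 4, WT SPM replicate 1, 2 or 4, or ACKR2-/- SPM replicate 1 or 4. Cdkn1a, a cell cycle inhibitor, was at 84.7 ± 9.81 CPM in WT and 149.7 ± 48.1 CPM in ACKR2-/- samples, which did not overlap, with an adjusted p of 0.788, and Junb, a transcription factor of the AP-1 family, had a log2 fold change of 0.58 with the same adjusted p. The summed markers of large peritoneal macrophages were 182 to 913 CPM in WT and 810 to 1561 CPM in ACKR2-/- SPMs, with 0 of 4 called. The summed NK cell markers were 2.35 to 11.7 CPM in WT and 11.4 to 67.3 CPM in ACKR2-/- SPMs, and the erythroid markers 1.41 to 110 CPM and 46.4 to 659 CPM, with 0 called in either list. The part of these cells in the SPM values was not tested.

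In lung macrophages 0 of 67 tested list genes were called, with a median of -0.17 beside -0.04 over all genes, and 6 had an unadjusted p under 0.05, all lower in ACKR2-/- samples. Of all 16824 genes tested, 0 were called and 499 had such a p in either direction. In SPMs such a p was found for 7 list genes higher and 1 lower of 50, beside 709 of 12997 genes. In monocytes it was found for 1 higher and 2 lower of 45, beside 2251 of 13246 genes. In the lung libraries the summed NK cell markers were 104 to 276 CPM in WT and 252 to 1609 CPM in ACKR2-/- samples, the B cell markers 724 to 3861 CPM and 602 to 1026 CPM, and the platelet markers 81.7 to 658 CPM and 47.3 to 107 CPM. No marker of these lists was called, and their part in the lung values was not tested. The lowest p of the list in the lung was that of Dab2, an endocytic adaptor that binds the TGF-beta receptors, with a log2 fold change of -1.70 ± 0.56. It was at 318 CPM in WT replicate 3 and at 58.9 to 75.7 CPM in the other WT samples, against 12.2 to 61.6 CPM in ACKR2-/- samples. Without WT replicate 3 its log2 fold change was -0.89, and without both WT replicates 3 and 5 it was -0.845. Junb followed, with a log2 fold change of -0.47 ± 0.16.

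The members were then compared between WT cell types. Each cell type has a table of its own, and the lung table carries summary lines of a kind the others lack. Cell type, table and counting therefore cannot be told apart. Whether the cell types shared a sequencing run is stated in no source used here. RPKM values come from a common scaling of all 26 samples. In lung macrophages 7 of the 8 members were called higher than in monocytes and the same 7 higher than in SPMs, and Tgfbi was not called in either contrast. Of all genes, 39.5% were called higher in the lung than in monocytes and 39.1% higher than in SPMs. The call of Nrros was lost in 1 alternative of each contrast.

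Per length, Nrros and Tgfbi were the most abundant members in every WT cell type. Nrros was at 63.2 ± 3.91 RPKM in monocytes, 59.3 ± 14.5 in SPMs and 102 ± 35.2 in lung macrophages, and Tgfbi at 83.3 ± 12.4, 43.5 ± 15.3 and 54.2 ± 33.2 RPKM in the same order. Tgfb1 was at 7.12 ± 0.934 RPKM in monocytes, 2.46 ± 1.10 in SPMs and 18.8 ± 7.53 in lung macrophages. Its WT values did not overlap between the cell types, with 6.30 to 7.99 RPKM in monocytes, 1.26 to 3.91 in SPMs and 9.11 to 30.1 in the lung. The receptor Tgfbr1 was at 1.58 ± 0.12, 1.00 ± 0.312 and 9.70 ± 4.12 RPKM, and Tgfbr2 at 1.08 ± 0.360, 2.87 ± 1.35 and 8.43 ± 0.878 RPKM.

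Smad3, Skil and Smad7 were low in monocytes and SPMs. Smad3 was at 0.822 ± 0.0545 RPKM in monocytes, 1.19 ± 0.564 in SPMs and 4.11 ± 2.31 in lung macrophages, and Skil at 0.410 ± 0.0751, 0.379 ± 0.230 and 8.21 ± 2.01 RPKM. Smad7 was at 0.221 ± 0.0593, 0.130 ± 0.127 and 1.22 ± 0.353 RPKM. The WT lung samples of Tgfb1, Tgfbr1, Tgfbr2, Smad7 and Skil all lay above every WT sample of the other cell types. For Skil the lung samples were at 6.23 RPKM or more and the other WT samples at 0.724 RPKM or less.

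**Figure D3:**
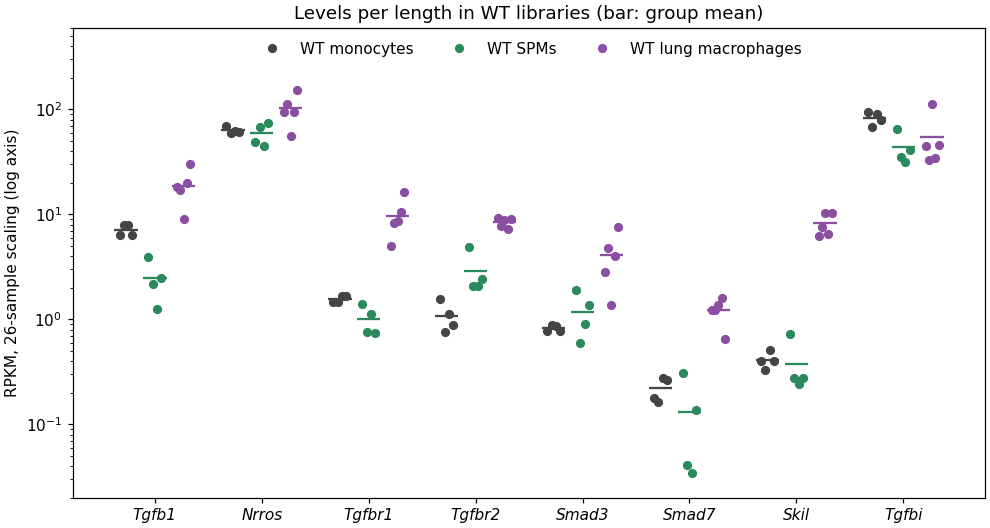
RPKM of the 8 genes (log axis) in the WT libraries of each cell type, with bars at the group means. Tgfb1, Tgfbr1, Tgfbr2, Smad7 and Skil have all lung libraries above all others, and Nrros and Tgfbi lie highest in each cell type.

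Against monocytes, lung macrophages had higher Skil (log2 difference 4.32 ± 0.32), Tgfbr2 (2.96 ± 0.33), Tgfbr1 (2.62 ± 0.35), Smad7 (2.46 ± 0.49), Smad3 (2.32 ± 0.39), Tgfb1 (1.40 ± 0.32) and Nrros (0.69 ± 0.26). Their adjusted p in edgeR ran from 2.38e-11 for Skil to 0.0197 for Nrros. Thus 7 of 8 members were called higher, where 39.5% of all genes were, and 0 lower, where 24.4% were. Tgfbi had a difference of -0.62 (95% CI -1.25 to 0.02), which without WT lung replicate 3 was -1.07 with an adjusted p of 0.000825. Nrros was 0.50 without the library labelled WT replicate 5 and then no longer called (adjusted p of 0.0819). The median over the members was 2.39, beside 0.34 over all genes.

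Against SPMs, lung macrophages had higher Skil (4.41 ± 0.33), Tgfbr1 (3.28 ± 0.37), Smad7 (3.14 ± 0.53), Tgfb1 (2.92 ± 0.34), Smad3 (1.78 ± 0.38), Tgfbr2 (1.55 ± 0.31) and Nrros (0.79 ± 0.26), with adjusted p from 3.07e-11 to 0.00977. Of all genes 39.1% were called higher and 23.2% lower in the lung, and 0 members were called lower. Tgfbi did not pass, at 0.32 (95% CI -0.32 to 0.96), and was -0.13 without WT lung replicate 3. On library totals without TMM factors, which shifted the median gene by 1.21 in this contrast, it was 1.47 and called (adjusted p of 0.000588). Nrros was not called in a fit of the WT samples of these cell types alone (0.65, adjusted p of 0.0835). The summed epithelial markers were 212 to 8780 CPM and the summed fibroblast markers 79.2 to 862 CPM in the WT lung libraries, while neither list exceeded 3.36 CPM in the WT monocyte and SPM libraries, with the fibroblast marker Pdgfra at 0 in both and the epithelial marker Sftpc at 0 in SPMs. The part of such cells in the lung levels was not tested.

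Between SPMs and monocytes the members moved in both directions, and the result depended on the scaling. With TMM factors Tgfb1 was lower in SPMs by a log2 difference of -1.52 ± 0.33 (adjusted p of 0.000597 in edgeR) and Tgfbi by -0.94 ± 0.33 (adjusted p of 0.0233), while Tgfbr2 was higher by 1.41 ± 0.32 (adjusted p of 0.000882). The call of Tgfbi was lost with RLE factors (-0.77, adjusted p of 0.0644) and without WT monocyte replicate 1 or WT SPM replicate 2, 3 or 4 (-0.92 to -0.82). The other 5 members had intervals across 0, and Smad7 was called without WT SPM replicate 1 (-1.51, adjusted p of 0.0329). This made 1 of 8 called higher, where 21.8% of all genes were, and 2 called lower, where 20.1% were. The summed neutrophil markers were 27244 to 66307 CPM in WT monocytes, and at most 3.96 CPM in WT SPMs and 3.04 CPM in WT lung libraries. The T cell markers were 253 to 496 CPM in WT SPMs and 3.12 to 4.36 CPM in WT monocytes, and the B cell markers 292 to 938 CPM and 641 to 738 CPM. The part of such cells in the differences from monocytes was not tested. Counts were more concentrated in SPM libraries, where the top 10 genes held 31.1 to 40.5%, than in monocyte libraries, at 13.3 to 18.4%. On library totals without TMM factors, an alternative chosen after seeing the data, the median gene shifted by -1.12, and the differences were -2.59 for Tgfb1, -2.02 for Tgfbi and 0.34 for Tgfbr2. Tgfb1 and Tgfbi were lower on both scales, Tgfbr2 was then no longer called (adjusted p of 0.434), Smad3 turned from 0.54 to -0.52, and Tgfbr1, Smad7, Skil and Nrros were called lower (-1.75 to -1.14).

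**Figure D4:**
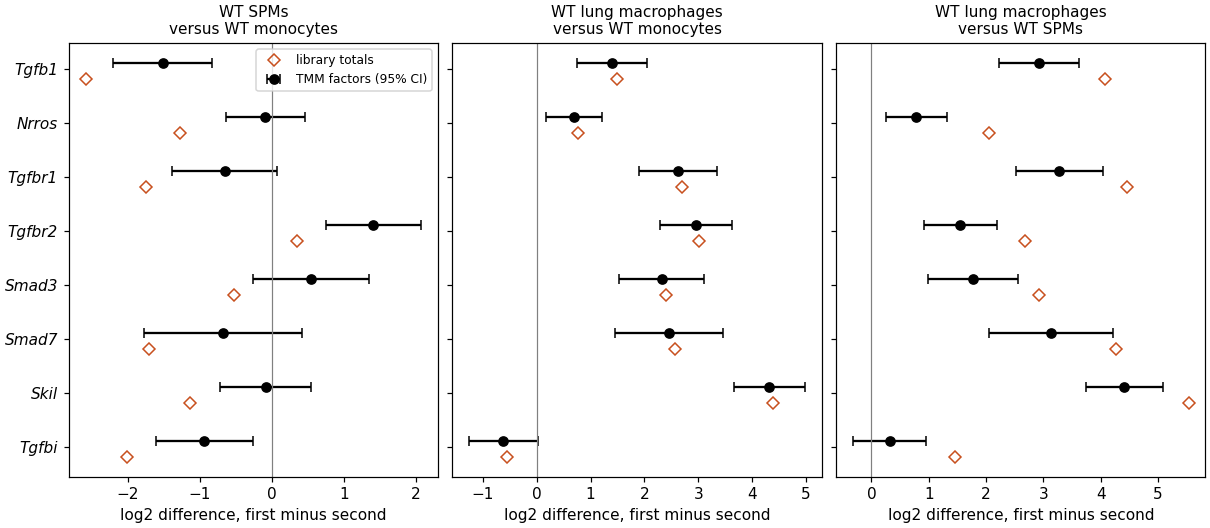
Log2 difference of the 8 genes between WT cell types, first minus second, with TMM factors (black, 95% confidence interval) and on library totals (open diamonds). Tgfb1 keeps its side of 0 in each panel on both scales, and in SPMs against monocytes Tgfbr2 falls from 1.41 to 0.34.

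The wider list, which holds the 8 members, was also compared between WT cell types. In lung macrophages against monocytes 54 of 67 tested list genes were called higher and 1 lower, beside 39.5% and 24.4% of all genes. Against SPMs 52 were called higher and 2 lower, beside 39.1% and 23.2% of all genes. By role, 10 of 11 receptors, 13 of 13 tested latency and activation genes, 10 of 12 inhibitors, 8 of 10 ligands, 8 of 10 target genes, 3 of 5 tested Smads and 2 of 6 tested adaptors and cofactors were called higher than in monocytes. In the fits of single cell types, only 45 list genes were tested in monocytes and 50 in SPMs. Some list genes, such as Ltbp2 and Ltbp4 with 0 reads in monocytes, passed the filter through other cells. Their direction was fixed by that, so these counts do not measure a shift of the pathway. Among the genes called higher were the latent TGF-beta binding protein Ltbp4, the matrix-associated target Ctgf and the ligand Tgfb3, each with 0 reads in WT monocytes, and their lung levels were at least 1559-fold, 1353-fold and 273-fold higher by a floor of 3 reads over the group. Against SPMs, Ltbp4, Bmp6 and Bmp4 had 0 reads in WT SPMs and were at least 811-fold, 379-fold and 106-fold higher in the lung. Ltbp4 ran from 187 to 2832 reads per WT lung library. Dcn, a latency and activation gene of the list, is also a fibroblast marker, at 19.5 to 284 CPM in the WT lung libraries. The summed endothelial markers were 92.4 to 568 CPM there, 8.79 to 9.84 CPM in WT monocytes and 1.11 to 1.68 CPM in WT SPMs. The part of epithelial, fibroblast and endothelial cells in these counts and levels was not tested. Between SPMs and monocytes 17 of 67 were called higher and 14 lower, near the shares of all genes (21.8% and 20.1%). The largest of these differences were those of the ligand Tgfb2, with 3 reads in WT monocytes and 506 in WT SPMs, Dab2, with 39 and 1956 reads, and Ltbp1, another latent TGF-beta binding protein, with 8 and 413 reads.

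Over the 6 groups, the mean log2 CPM of Tgfb1, centred on its own mean, was 1.55 in WT and 1.72 in ACKR2-/- lung macrophages, 0.24 and -0.62 in monocytes, and -1.39 and -1.52 in SPMs. The genes whose pattern lay nearest were Jdp2, with a root mean square difference of 0.130 on the log2 scale, Rara (0.139), Dlec1 (0.151), Rab15 (0.155) and Tfip11 (0.18). These are descriptions over 6 groups among 17792 genes. Jdp2, which encodes an AP-1 repressor, was at 0.17 and -0.79 in WT and ACKR2-/- monocytes, and Rara, the retinoic acid receptor alpha, at 0.17 and -0.47.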

How the data were processed

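Each cell type has a deposited table of unnormalized read counts, which the authors made from poly-A RNA amplified by the SMARTer method and sequenced as paired ends. The submitters' processing notes name HISAT2 2.0.5, featureCounts 1.5.0-p3, DESeq2 and build mm10. The lung table also holds summary lines with 56.3% of its counts, which entered neither library sizes nor tests. How the counting treated strand or overlapping genes is stated in no source used here.

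Counts were analysed in R 4.3.3 with edgeR 4.0.16. Genes were filtered by filterByExpr (minimum count 10, minimum total 15), libraries scaled by TMM, and genotypes compared by the quasi-likelihood test for each cell type. WT cell types and differences of genotype effects were tested in a fit of all 26 samples. The Benjamini-Hochberg adjustment ran over all genes tested, and calls required an adjusted p below 0.05 together with a log2 change of more than 0.5 in size. RPKM used the gene lengths of the monocyte and SPM tables, matched by gene identifier in the lung. DESeq2 1.42.0, other factors, filters and fits, a replicate block and leaving out each sample were alternatives. Library totals for WT cell types and other alternatives were added after seeing the data. Nothing in the labels says that replicate samples of the lung came from separate mice, so p-values measure the spread between these samples. The closest pair of replicates differed by a chi-square of 10.6 per degree of freedom, and 0 of 44 pairs were identical. The scripts were tested on simulated counts.

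The members and the lists were chosen with earlier results of these data known. Named genes were the 8 members, list genes called in a genotype comparison or a difference of effects and those with the smallest p, the 3 called list genes with the largest difference between WT cell types, the 5 genes nearest to Tgfb1, and Ackr2. Upstream windows came from RefSeq (GRCm38.p6). All columns of counts were mapped to samples, and 0 were left out.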

Additional observations from a re-analysis of the deposited data

Results flagged for a closer look

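Among the 48 combinations of a member and a group, the gap of the highest or lowest sample to its nearest neighbour was over Dixon's 95% limit in 3, where chance gives about 1 in 20. In WT SPMs, Tgfbr2 was at 24.8 CPM in replicate 1 and at 9.50 to 10.7 CPM in the other 3 samples. In the same library Skil was at 4.36 CPM, against 1.32 to 1.5 CPM in the others. In WT lung macrophages, Tgfbi was at 570 CPM in replicate 3 and at 163 to 214 CPM in the other 4 samples. This is the library with the high summed level of the list that holds the MHCII gene H2-Ab1. Over the WT lung libraries H2-Ab1 reached 21242 CPM, while Cd226 of the same list reached 7.65 CPM. The part of cells with such markers in the Tgfbi level of replicate 3 was not tested.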

How the results depend on the processing

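Members called between genotypes numbered 0 in SPMs and in the lung under every alternative run. In monocytes the count rose from 0 to 1, Tgfb1, without a filter, with DESeq2 and with a replicate block, and was 0 to 1 when a sample was left out. The log2 fold change of Tgfb1 was then -0.817, -0.812 and -0.836, past the threshold, and -0.979 to -0.664 without a sample. Same-numbered WT and ACKR2-/- samples were compared by log2 CPM, after the genotype mean of each gene was subtracted. These deviations had correlations of -0.12 to 0.31 (monocytes), -0.09 to 0.02 (SPMs) and -0.08 to 0.64 (lung), highest in lung replicate 1. These values neither show nor exclude that the numbers pair the samples. The block moved called list genes in monocytes from 1 to 2 and in SPMs from 1 to 0, and changed no other count of members. Called list genes in monocytes also numbered 2 without a filter and with DESeq2 (0 to 2 without a sample). In SPMs their count was 0 with RLE factors, a filter at 1 CPM and a robust fit (0 to 1 without a sample, as for the difference between SPMs and monocytes). Members called in SPMs against monocytes rose from 3 to 6 on library totals, an alternative chosen after seeing the data, where Smad3 turned to -0.524.

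Of the 23 log2 fold changes between genotypes, 11 kept their sign throughout, and of the 24 between WT cell types, 20 did. Changes of sign in SPMs came with a replicate block for Tgfbr2 (0.075) and Skil (0.051), and without a filter for Tgfbr2 (0.02). With RLE factors Skil was 0.075 and Nrros 0.079 in SPMs against monocytes. Without a sample the ranges that crossed 0 in monocytes were -0.197 to 0.362 for Tgfbr2 and -0.285 to 0.001 for Smad7. In SPMs they were -0.493 to 0.088 for Tgfb1, -0.191 to 0.419 for Tgfbr2, -0.343 to 0.12 for Tgfbi, -0.052 to 0.592 for Smad3 and -0.301 to 0.522 for Skil. In the lung they were -0.074 to 0.386 for Tgfb1, -0.452 to 0.156 for Tgfbr1, -0.024 to 0.529 for Smad3, -0.197 to 0.18 for Smad7 and -0.172 to 0.268 for Nrros, where 0.156 left out WT replicates 3 and 5 together, chosen after seeing the data. Between WT cell types they were -0.626 to 0.046 for Skil and -0.231 to 0.012 for Nrros (SPMs against monocytes) and -0.203 to 0.591 for Tgfbi (lung against SPMs). The cause of these changes was not tested. Smad7 had only 68 reads in all SPM samples, which limits what its values there can show.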
